A study of Mus musculus with 69 samples.

Results

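The MHC class I pathway was followed through 9 genes: the heavy chains H2-K1 and H2-D1, the light chain gene B2m, the peptide transporter genes Tap1 and Tap2, the tapasin gene Tapbp, the immunoproteasome genes Psmb8 and Psmb9, and the regulator Nlrc5. They were taken by name out of 21757 protein-coding genes, and every peak within 10 kb of their gene bodies was collected from 18 peak lists of the histone marks H3K4me1 and H3K27ac. Of 1506511 peaks in all lists, 927 lay in these windows, each counted once within its list.

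The study used ChIPmentation, in which chromatin bound by an antibody is tagged with the Tn5 transposase, on sorted haematopoietic stem cells (HSCs) and progenitor cells (HPCs) of mice. It concerned Kmt2c, which encodes MLL3, an enzyme that places H3K4me1 at enhancers, whereas H3K27ac marks active enhancers and promoters. Knockout mice were Kmt2c f/f; Vav-Cre and heterozygous mice were Kmt2c f/+; Vav-Cre, with Vav-Cre active in blood-forming cells. For wild-type mice the labels name no allele and no Cre.

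H3K4me1 of untreated mice was profiled at 8 weeks in HSCs and HPCs of all 3 genotypes, with 3 libraries per group. HSCs of wild-type and knockout mice at 16 weeks followed PBS or 150 mg/kg 5-fluorouracil (5FU, which kills dividing cells), given every 3 weeks for 3 doses. Their H3K27ac groups had 3 libraries each, and their H3K4me1 groups had 3 to 6. HPCs of wild-type and knockout mice aged 8 to 10 weeks followed PBS or 0.5 µg IL-1, an inflammatory cytokine, per day for 3 days, and had 4 H3K27ac libraries per group. Each group had 1 list for all of its libraries, so no value below has a replicate spread, no difference was tested, and the depth of the libraries is unknown. Words such as more, less, higher and lower therefore describe lists, not conditions.

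Lists of the same mark differed in size. The H3K27ac lists covered 33.4 to 45.9 Mb of the genome and the H3K4me1 lists 44.2 to 116.0 Mb. The largest H3K4me1 list, of wild-type HSCs after 5FU, pooled 6 libraries with the run prefixes s4902 and s5060, whereas the other 16-week H3K4me1 lists came from s5060 libraries alone. Cell-type labels were checked by marker genes. In wild-type H3K4me1, 7 of 8 HSC markers were covered less in HPCs than in HSCs relative to the median gene, among them Tek (5245 bases in HSCs, 779 in HPCs) and Mllt3 (77407 and 21918). All 5 measured progenitor markers were covered more, among them Dntt (4606 and 21309) and Mpo (3104 and 12054). In H3K27ac, 6 of the 8 HSC markers had more covered bases in every HSC list than in every HPC list, among them Slamf1 (6274 to 8993 in HSCs, 0 to 190 in HPCs) and Mllt3 (18141 to 29890 and 529 to 3575). Procr overlapped (2532 to 3850 and 721 to 3478), and Hlf went against its label, with 7582 to 8175 in HSCs and 22908 to 27182 in HPCs. Of 7 progenitor markers, 4 had more in every HPC list, Elane and Ctsg overlapped, and Il7r had none in any list.

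Class I molecules display peptides from inside the cell to CD8 T cells. The proteasome cuts proteins into peptides, with Psmb8 and Psmb9 replacing catalytic subunits in the immunoproteasome. TAP1 and TAP2 form the transporter that moves peptides into the endoplasmic reticulum, where tapasin holds the transporter beside a waiting heavy chain and B2m. NLRC5 is a transactivator that acts at class I promoters through the factors on the X and Y boxes, and interferons and NF-kB also act on these genes.

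The promoters of the 2 heavy chains, B2m, Tap1 and Psmb8 are printed, the heavy chains for the arrangement they share, B2m and Psmb8 for their interferon-type and STAT-type matches, and Tap1 because its promoter overlaps that of Psmb9. They are RefSeq sequences of GRCm38.p6, from 250 bases before to 50 bases after the start site, written 5′ to 3′ along the gene. Capitals mark matches, on either strand, to GAAANNGAA (the core of the interferon-stimulated response element), TTCNNNGAA (a STAT site), GGANTNNCC (a kB core), TGACGC (an X2 or CRE-like core) and CCAAT (the Y box, ATTGG on the other strand). Overlapping matches run together. H2-K1 lies at chr17:34000298-34000597 on the minus strand, H2-D1 at chr17:35262844-35263143, B2m at chr2:122147437-122147736, Tap1 at chr17:34187306-34187605 and Psmb8 at chr17:34197945-34198244, these 4 on the plus strand.
H2-K1: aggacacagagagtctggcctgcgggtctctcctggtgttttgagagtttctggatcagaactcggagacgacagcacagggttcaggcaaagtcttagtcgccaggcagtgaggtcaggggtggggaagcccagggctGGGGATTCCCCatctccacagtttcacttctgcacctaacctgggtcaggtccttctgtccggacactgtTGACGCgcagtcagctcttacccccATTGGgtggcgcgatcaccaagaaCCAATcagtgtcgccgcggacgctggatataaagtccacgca
H2-D1: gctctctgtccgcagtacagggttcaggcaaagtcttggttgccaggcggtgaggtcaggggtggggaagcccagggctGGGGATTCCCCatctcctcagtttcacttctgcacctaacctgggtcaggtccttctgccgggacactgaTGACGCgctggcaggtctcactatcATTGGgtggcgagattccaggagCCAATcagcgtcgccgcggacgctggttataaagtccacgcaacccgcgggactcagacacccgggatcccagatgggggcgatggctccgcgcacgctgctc
B2m: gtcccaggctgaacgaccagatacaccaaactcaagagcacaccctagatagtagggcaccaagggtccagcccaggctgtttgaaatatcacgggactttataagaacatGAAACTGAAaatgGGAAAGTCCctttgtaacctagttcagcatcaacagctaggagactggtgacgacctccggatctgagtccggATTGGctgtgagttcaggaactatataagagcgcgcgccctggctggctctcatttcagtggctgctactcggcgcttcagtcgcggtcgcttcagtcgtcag
Tap1: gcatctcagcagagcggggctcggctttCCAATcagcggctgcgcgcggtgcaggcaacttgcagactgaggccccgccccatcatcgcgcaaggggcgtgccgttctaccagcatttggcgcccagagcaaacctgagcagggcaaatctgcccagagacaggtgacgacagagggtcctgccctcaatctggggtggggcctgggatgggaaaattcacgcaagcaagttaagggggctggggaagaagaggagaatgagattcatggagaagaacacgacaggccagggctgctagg
Psmb8: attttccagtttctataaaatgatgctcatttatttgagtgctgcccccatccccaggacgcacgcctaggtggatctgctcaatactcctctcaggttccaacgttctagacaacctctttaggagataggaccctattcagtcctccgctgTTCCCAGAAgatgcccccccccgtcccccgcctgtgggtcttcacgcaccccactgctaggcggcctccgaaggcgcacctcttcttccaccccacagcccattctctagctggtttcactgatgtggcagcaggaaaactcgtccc

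The heavy-chain promoters shared their arrangement. Shifted by 60 bases, 176 of the 240 bases compared between H2-K1 and H2-D1 were identical (73.3%). Both held a run in which kB cores matched on both strands, followed by TGACGC and then by Y boxes on both strands. Positions are those of a match's first base counted from the start site as 0. The TGACGC of H2-K1 lay at −41 and that of H2-D1 at −101. The start site used for H2-K1, 34000347, lies inside its gene bounds, which end at 34000619, whereas that of H2-D1 lies at its gene's lower bound. Positions in H2-K1 therefore depend on the start site used, and 1 of its Y boxes lies after that site, at 8. B2m held GAAANNGAA at −139, a kB core at −126 and a Y box at −53. In the Psmb8 promoter TTCNNNGAA at −97 was the match found, and in the Tap1 promoter a Y box at −222. These motifs are short, and of 27025 promoters of the same length 8.57% held GAAANNGAA, 8.47% TTCNNNGAA, 12.9% GGANTNNCC, 7.5% TGACGC and 37.9% CCAAT. A match describes letters and does not show binding.

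Promoters of 7 members could be matched. In each of the 8 H3K27ac lists all 7 overlapped a peak, against 40.6% to 46.6% of 17476 promoters. H3K4me1 lists had a peak on 0 to 3 of the 7, against 3.44% to 15.5% of all promoters. Tapbp was the member concerned in 8 of the 10 H3K4me1 lists, B2m in 2 and Psmb8 in 1. Tap1 and Psmb9 are transcribed away from each other from start sites 226 bases apart, their promoter windows share 275 bases, and 1 peak served both.

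**Figure D1:**
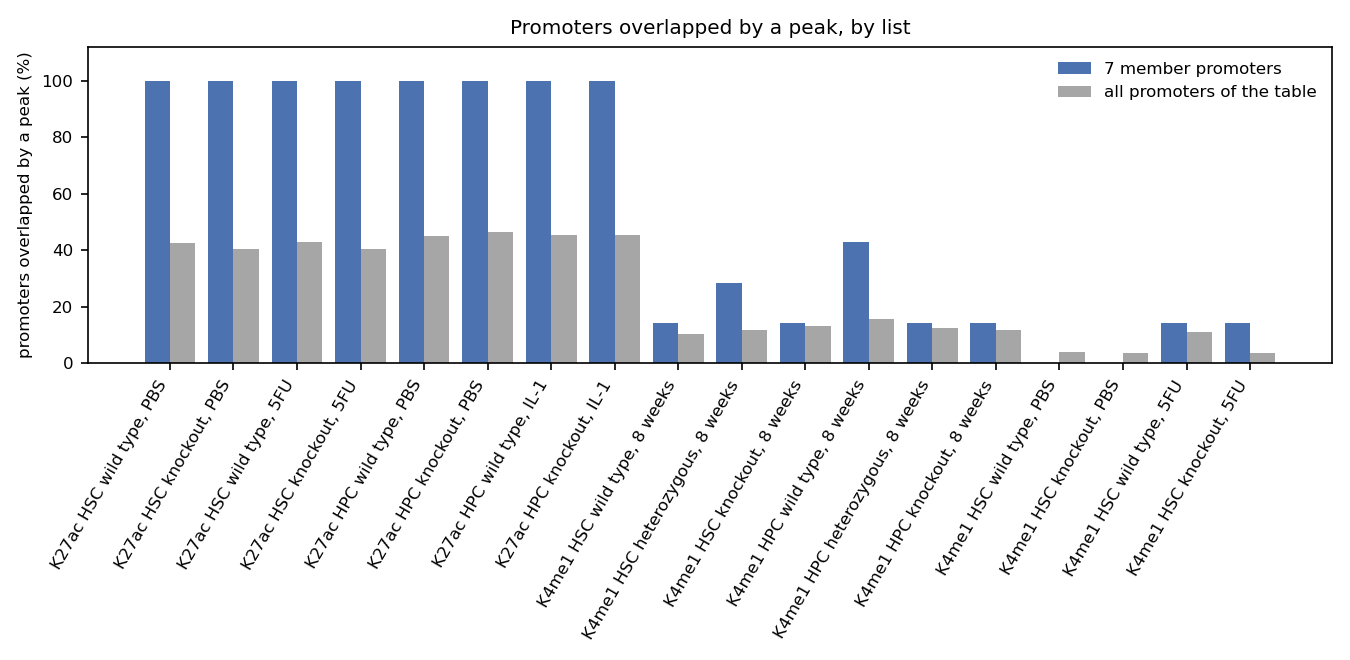
Percent of promoters that overlap a peak (y axis) in each list (x axis), for the 7 matched member promoters and for all 17476 promoters. The members stand at 7 of 7 in all 8 H3K27ac lists and at 0 to 3 of 7 in the H3K4me1 lists.

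The H3K27ac peaks on the promoters of H2-K1, H2-D1 and B2m were among the stronger ones of their lists. Fold enrichment is the authors' value per peak, a ratio over background, and is given to describe a peak within its list. The peak on the H2-K1 promoter had a fold enrichment of 12.1 to 13.9 in the 4 HSC lists and 13.5 to 16.1 in the 4 HPC lists. At H2-D1 these values were 10.8 to 14.2 in HSCs and 15.6 to 22 in HPCs, and at B2m 8.78 to 11.6 and 13.0 to 18.8. By rank within a list the order of the cell types was the other way. At H2-K1 1.82% to 2.71% of peaks had a higher −log10 p in HSCs and 6.08% to 9.24% in HPCs. At H2-D1 these shares were 2.04% to 3.64% and 4.02% to 4.64%, and at B2m 3.3% to 4.04% and 5.73% to 7.09%. By fold enrichment these 3 antigen-presenting subunits stood above the processing genes in HSCs. There the peak shared by Tap1 and Psmb9 had 3.79 to 6.64, that of Psmb8 5.28 to 6.04 and that of Tapbp 6.11 to 8.02. In HPCs the shared Tap1 and Psmb9 peak had 8.68 to 18.1, Psmb8 6.29 to 10.8 and Tapbp 8.62 to 13.1. HSC and HPC H3K27ac lists came from mice of different age and regimen. The HPC libraries carried the run prefix 3050, with 4 libraries per group, and the HSC libraries carried none, with 3 per group. Over the whole genome the HPC peaks were also wider, with median widths of 587 to 784 bases against 294 to 430. Wherever these lists are set side by side, cell type cannot be told apart from age, regimen, run prefix and number of libraries.

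Strength can also be placed by rank. In the H3K27ac lists 1.82% to 9.24% of peaks had a higher −log10 p than the strongest peak of the H2-K1 window, 2.04% to 4.64% for H2-D1 and 3.3% to 7.09% for B2m. The processing genes overlapped these ranges, with 3.04% to 5.07% for the Tapbp window and 5.29% to 14.7% for the Tap1 locus. The strongest Tapbp peaks lay within chr17:33907855-33910843, which runs over the lower edge of that window. The strongest H3K27ac peak at Nlrc5, the regulator, stood far lower, with 20.6% to 51.2% of a list above it. In H3K4me1 the order was different. There 0.125% to 15.8% of peaks were stronger than the strongest in the Nlrc5 window, and 0.141% to 2.87% at the Tap1 locus. In the HSC lists other than the heterozygous one, that strongest Nlrc5 peak lay past the upper end of the gene, within chr8:94534956-94538448. This region runs over the window's edge on the side of Cpne2, so its strength cannot be assigned to Nlrc5.

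The 9 windows formed 6 loci, since Psmb9, Tap1, Psmb8 and Tap2 lie side by side at chr17:34172030-34226321 and share peaks. Tapbp lies at chr17:33909478-33939290, H2-K1 at chr17:33986012-34010619, H2-D1 at chr17:35253094-35277497, B2m at chr2:122137687-122163082 and Nlrc5 at chr8:94424335-94537272 (mm10, windows included). The gene table used here gives bounds only, so a region can be placed inside a gene but not in an exon or intron. Other genes reach into these windows, namely Ddx39b at H2-D1, Patl2 and Trim69 at B2m, Daxx, Zbtb22, Rgl2 and Pfdn6 at Tapbp, and Cpne2 at Nlrc5. Class I heavy chains have close copies in the genome, and the treatment of reads that fit several places is not given in the sources used here.

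H3K27ac lists held 21 to 39 peaks in the windows, which covered 8.72% to 15.3% of their bases. H3K4me1 lists held 57 to 82 peaks and covered 13.4% to 29.7%. Merged over lists of a mark, the peaks formed 51 H3K27ac regions, of which 12 were present in every list and 19 in 1 list, and 68 H3K4me1 regions, of which 28 were in every list and 17 in 1.

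**Figure D2:**
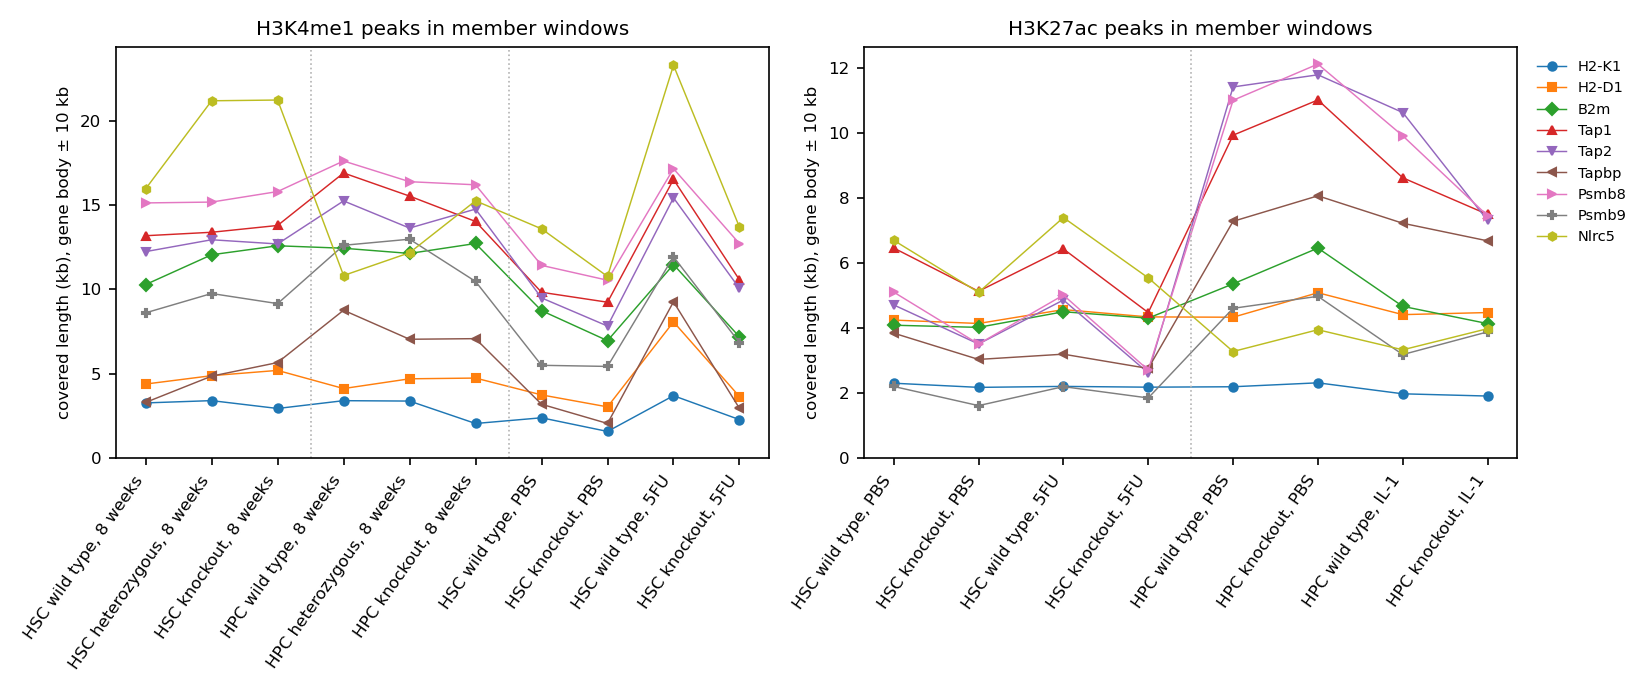
Length covered by peaks in the window of each of the 9 members (y axis, kb), with H3K4me1 on the left and H3K27ac on the right and 1 point per list (x axis). Lines join the points of a gene and stand for no order. H3K27ac covered 1918 to 2325 bases at H2-K1 in all 8 lists and 2629 to 11806 bases at Tap2.

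Per length of window, H3K27ac was densest at Psmb8, Tap1, Tap2 and Tapbp in HPCs, with ranges that overlap those of B2m and H2-D1. It covered 32.1% to 52.2% of the Psmb8 window in the 4 HPC lists, 25.3% to 37.2% of Tap1, 23% to 37.1% of Tap2 and 22.5% to 27.1% of Tapbp. In the 4 HSC lists these shares were 11.7% to 22%, 15.1% to 21.8%, 8.26% to 15.3% and 9.28% to 12.9%. Psmb9, the other immunoproteasome gene, had 12.6% to 19.7% in HPCs and 6.41% to 8.75% in HSCs, while in HPCs B2m had 16.3% to 25.5% and H2-D1 17.8% to 20.9%. Nlrc5, with a long gene, had the lowest share, 2.91% to 3.53% in HPCs and 4.52% to 6.56% in HSCs. In H3K4me1 the order began with Psmb8 (45.3% to 75.7% over the 10 lists), Tap1 (31.2% to 56.9%) and B2m (27.4% to 50.1%), whose ranges overlap. The lowest shares were those of H2-K1 (6.47% to 15.1%), Nlrc5 (9.54% to 20.6%) and Tapbp (6.93% to 31.1%), whose ranges overlap as well and whose order differed between lists.

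The heavy chains H2-K1 and H2-D1, which carry the peptide groove, had the steadiest H3K27ac of the pathway. H2-K1 was covered over 2313 bases in wild-type HSCs after PBS, 2215 after 5FU, 2185 in knockout HSCs after PBS and 2191 after 5FU. In HPCs it was covered over 2204 bases (wild type, PBS), 2325 (knockout, PBS), 1987 (wild type, IL-1) and 1918 (knockout, IL-1). All of this was a single region at chr17:33999273-34001725, and the highest list was 1.21 times the lowest. H2-D1 was covered over 4256, 4579, 4152 and 4354 bases in the same order of HSC lists, and over 4344, 5098, 4424 and 4488 in that of the HPC lists. Its highest list was 1.23 times its lowest, and the 2 cell types overlapped. Within HSCs both 5FU lists were above both PBS lists, and within HPCs both knockout lists were above both wild-type lists.

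B2m, the light chain common to class I molecules, had 4032 to 4513 H3K27ac bases in HSCs and 4148 to 6472 in HPCs. Most of this came from the region over its start at chr2:122145118-122149658, covered over 3914 to 4234 bases in HSCs and 4148 to 4541 in HPCs. The highest value, in knockout HPCs after PBS, included 4 further short peaks. H3K4me1 covered 6967 to 12720 bases at B2m and lay at both ends of the H3K27ac region, overlapping it, with regions at chr2:122144488-122147491 and chr2:122149470-122153906 in all 10 lists.

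At the Psmb9, Tap1, Psmb8 and Tap2 locus, H3K27ac varied more over the lists than at the heavy chains. Tap2 was covered over 4723 bases in wild-type HSCs after PBS and 4874 after 5FU, and over 3520 and 2629 in knockout HSCs. In HPCs it was covered over 11432 (wild type, PBS), 11806 (knockout, PBS), 10645 (wild type, IL-1) and 7322 bases (knockout, IL-1). Psmb8 had 5117, 5025, 3520 and 2719 bases in the same order of HSC lists and 11022, 12136, 9929 and 7468 in that of the HPC lists. Both knockout HSC lists were below both wild-type HSC lists, and also covered less of the genome (33.4 and 36.5 Mb against 42.2 and 45.4 Mb). All HPC lists were above all HSC lists, but these differ in age, regimen, run prefix and genome-wide peak width as well as cell type. Tap1, the other transporter chain, had 6475, 6446, 5143 and 4488 bases in HSCs and 9947, 11031, 8636 and 7509 in HPCs. Psmb9 had 2213, 2208, 1623 and 1859 bases in HSCs and 4618, 4988, 3195 and 3893 in HPCs.

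**Figure D3:**
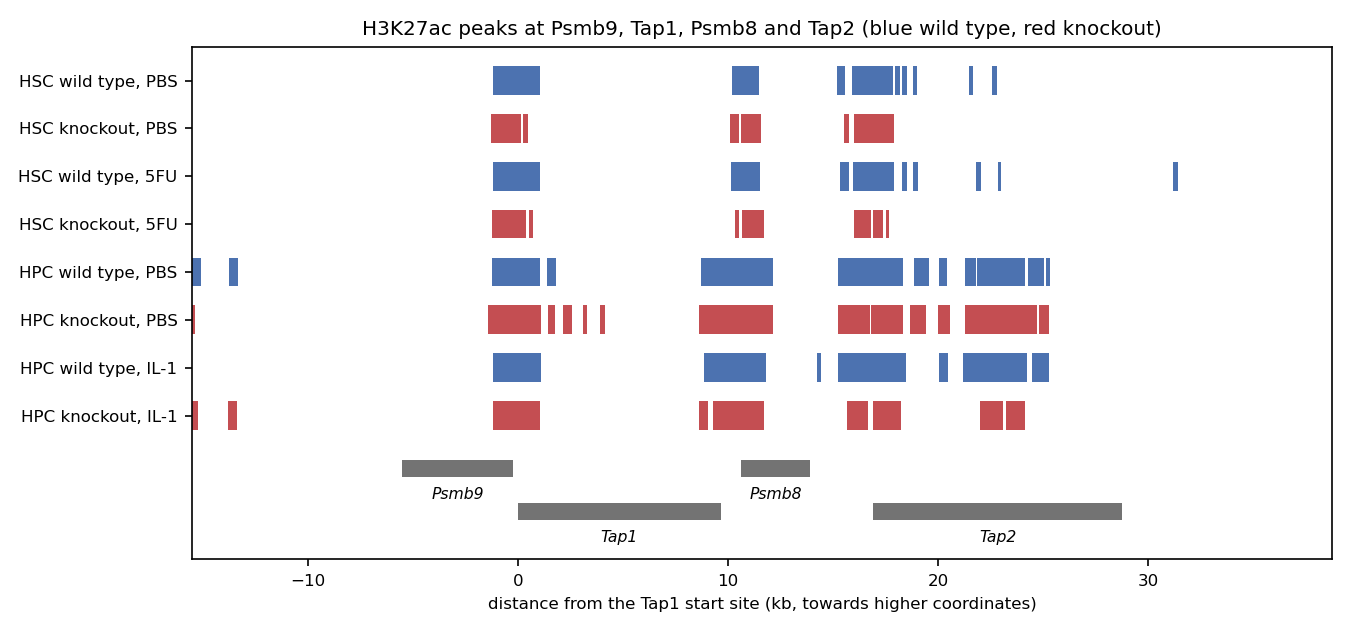
H3K27ac peaks of the 8 lists (1 line each) at the Psmb9, Tap1, Psmb8 and Tap2 locus against distance from the Tap1 start in kb (x axis), with gene bodies drawn to scale. The peaks between 21.2 and 25.3 kb, inside Tap2, are long in HPCs, short in wild-type HSCs and missing from both knockout HSC lists. The knockout HSC lists covered less of the genome than the wild-type ones. HPC and HSC lists also differed in age, regimen, run prefix and genome-wide peak width.

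The lengths came from a few regions. The region that spans the shared start of Psmb9 and Tap1, chr17:34186124-34188650, was covered over 1623 to 2213 bases in HSCs and 2228 to 2527 in HPCs. At the start of Psmb8, chr17:34196177-34199722, the values were 1240 to 1415 bases in HSCs and 2896 to 3531 in HPCs. Between Psmb8 and the lower part of Tap2, chr17:34202766-34206074, wild-type HSCs had 2783 bases after PBS and 2587 after 5FU, and knockout HSCs had 2123 and 1389. HPCs had 3112 (wild type, PBS), 3028 (knockout, PBS), 3236 (wild type, IL-1) and 2385 (knockout, IL-1) there.

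A region inside Tap2, chr17:34208730-34212889, was long in the HPC lists and short or missing in the HSC lists. These lists also differed in age, regimen, run prefix and genome-wide peak width. The region was covered over 3763 bases in wild-type HPCs after PBS and 3879 in knockout HPCs after PBS. After IL-1 it was covered over 3883 bases in wild-type HPCs and 2041 in knockout HPCs. Wild-type HSCs had 461 bases after PBS and 393 after 5FU, and neither knockout HSC list had a peak there. The knockout HSC H3K27ac lists were also smaller, covering 33.4 Mb (PBS) and 36.5 Mb (5FU) of the genome against 42.2 and 45.4 Mb in wild type. After IL-1 the knockout HPC list covered 36.9 Mb and the wild-type HPC list 44.9 Mb. The wild-type HSC peaks were weak, and the stronger peak in each list had 71.1% (PBS) and 40.7% (5FU) of its list above it by −log10 p, and a missing peak cannot be told apart from a signal just under the limit of the lists. H3K4me1 was present over the same stretch, chr17:34207450-34213932, in every list. At 8 weeks it covered 4152 bases in HSCs of wild-type mice, 4967 in those of heterozygous mice and 4567 in those of knockout mice, and 5885, 5991 and 6204 in HPCs of those genotypes. The knockout HSC list covered 113.5 Mb of the genome and the wild-type HSC list 86.1 Mb, and over the whole Tap2 window the knockout list was lower than the wild-type list relative to the median gene, by the measure given below, at −0.31. At 16 weeks the knockout HSCs had 2398 bases after PBS and 3876 after 5FU, and the wild-type HSCs 3476 and 5583.

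Tapbp, whose product tapasin bridges the transporter and the heavy chain, showed the largest H3K4me1 difference of the members between wild-type HSCs and HPCs. At 8 weeks it was covered over 3312 bases in wild-type HSCs and 8769 in wild-type HPCs, 4867 and 7051 in heterozygous mice, and 5671 and 7087 in knockout mice. All 3 HPC lists were above all 3 HSC lists, and the wild-type lists were the lowest and the highest of them. A region just below the gene, chr17:33916531-33919387, had 924, 335 and 689 bases in wild-type, heterozygous and knockout HSCs and 2588, 1661 and 1331 in HPCs. H3K27ac of the Tapbp window was 2767 to 3854 bases in HSCs and 6695 to 8081 in HPCs. The window holds the starts or ends of 4 other genes, and their part in these values was not tested.

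Nlrc5, the transactivator of the pathway, had the opposite order. H3K4me1 at 8 weeks covered 15956 bases in HSCs of wild-type mice, 21169 in those of heterozygous mice and 21213 in those of knockout mice, and 10825, 12174 and 15247 in HPCs of those genotypes. All 3 HSC lists were above all 3 HPC lists. Much of the difference lay past the upper end of the gene at chr8:94528354-94532552, within the window, with 2845, 3892 and 3176 bases in HSCs and 833, 320 and 929 in HPCs. That end of the window reaches Cpne2, so the region cannot be assigned to Nlrc5.

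H3K27ac at Nlrc5 was low and split into many short peaks. It covered 6711 bases in wild-type HSCs after PBS, 7412 after 5FU, 5110 in knockout HSCs after PBS and 5556 after 5FU, against 3289 to 3992 in the 4 HPC lists. HSC lists had 15 peaks each and HPC lists 3 to 8. Over the whole genome the HSC lists also held more and shorter peaks, 51112 to 67143 with median widths of 294 to 430 bases. The HPC lists held 37002 to 41314 peaks with median widths of 587 to 784 bases. A region at the lower end of the gene, chr8:94433664-94435994, was found in all 8 lists. Of the 51 H3K27ac regions of the pathway, 2 were in all 4 HSC lists and in no HPC list, and both were here. They were chr8:94443840-94444433, inside the gene, with 271 to 538 bases, and chr8:94529787-94531049, with 748 to 1019 bases, which lies in the H3K4me1 region past the upper end. A peak missing from the HPC lists cannot be told apart from a signal just under their limit. The HPC lists also differed from the HSC lists in age, regimen and run prefix.

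**Figure D4:**
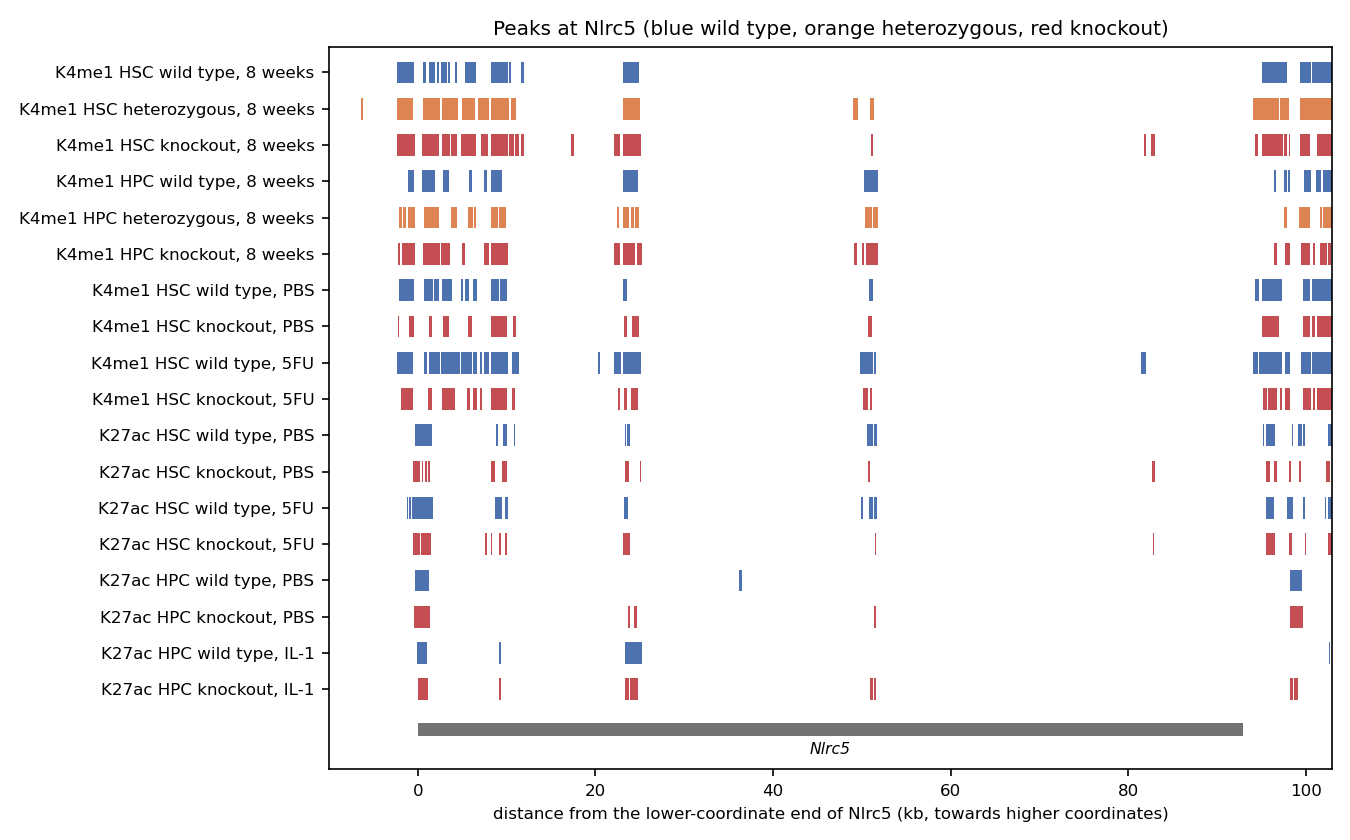
Peaks of each of the 18 lists (1 line each) at Nlrc5 against distance from the lower end of the gene in kb (x axis), with the gene body drawn to scale. H3K27ac peaks between 95.5 and 96.7 kb appear in the 4 HSC lists and in none of the HPC lists.

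For each member and pair of lists, the log2 ratio of covered bases (after adding 1000 bases to both) was taken, and centred on the median of all protein-coding genes that had 1000 or more covered bases in at least 1 of both lists. This centred value is the relative log2 ratio. A member is above where it is positive, and a difference of at least 1.5-fold from the median gene was counted. Members share windows and peaks, so 4 of the 9 are not independent of each other. Beside each count stands the percent of all measured genes that passed the same fold in the same direction. Over 19 comparisons the 9 members gave 171 ratios, of which 2 were at least 1.5-fold higher and 4 at least 1.5-fold lower. Together these were 3.51%, against 10.3% of 248407 ratios of all genes. All genes include many with few covered bases and were not matched to the members for covered length, so the 2 percentages are not like for like. In 15 comparisons no member passed the fold, and 24 of the 171 ratios lay outside the central 80% of all genes of their comparison.

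**Figure D5:**
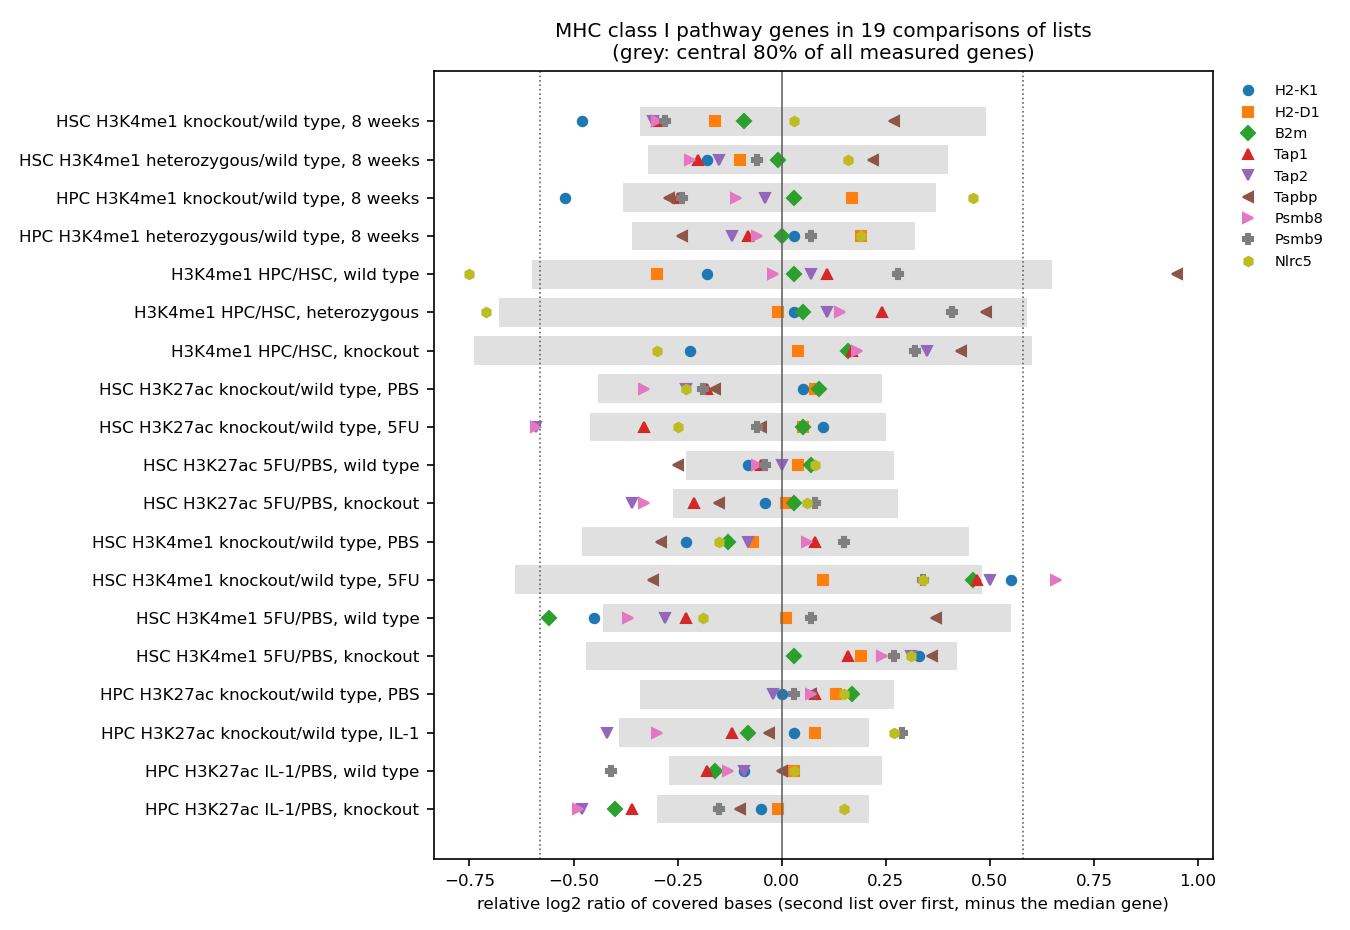
Relative log2 ratio of covered bases (x axis, log2 scale) for each of the 9 members (symbols) in each of the 19 comparisons (y axis). Grey bars span the central 80% of all measured genes and dotted lines mark 1.5-fold, and the values run from −0.75 at Nlrc5 to 0.95 at Tapbp, both for wild-type HPCs against HSCs in H3K4me1.

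In untreated HSCs most members were somewhat less covered by H3K4me1 in the knockout list than the median gene, and Tapbp was more covered. In knockout against wild-type HSCs at 8 weeks, 2 of 9 members were above the median gene, the median of the members was −0.28, and no member passed the fold, against 6.65% of all genes higher and 2.02% lower. The lowest was H2-K1 at −0.48 (3282 bases in wild type, 2953 in knockout), and Tapbp was above at 0.27. The median gene was itself longer in the knockout list, by 0.36 on the log2 scale, and before that subtraction the members' median was 0.08. In heterozygous against wild-type HSCs, 2 of 9 were above with a median of −0.10, and none passed the fold (4.08% of genes higher, 1.96% lower). Both comparisons share the wild-type list.

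In untreated HPCs, knockout against wild type gave 3 of 9 members above, a median of −0.11 and none past the fold, against 3.4% of genes higher and 4.07% lower. H2-K1 was again the lowest, at −0.52 (3415 bases in wild type, 2064 in knockout), and Nlrc5 the highest, at 0.46 (10825 and 15247). Heterozygous against wild-type HPCs gave 5 of 9 above and none past the fold (2.55% of genes higher, 3.19% lower). The wild-type list is shared here too.

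Between the cell types, Tapbp and Nlrc5 passed the fold in H3K4me1. In wild-type HPCs against HSCs, 5 of 9 members were above, Tapbp was higher at 0.95 and Nlrc5 lower at −0.75, against 11.6% of genes higher and 10.6% lower. In heterozygous mice 7 of 9 were above and Nlrc5 was lower at −0.71 (10.2% of genes higher, 12.4% lower), while Tapbp was at 0.49. In knockout mice 7 of 9 were above and none passed the fold (10.5% higher, 14.0% lower), with Tapbp at 0.43 and Nlrc5 at −0.30. Whether these differences vary with genotype was not tested. Tapbp stayed past the fold in wild type under every alternative tried (0.60 to 0.98). The Nlrc5 value of wild type lost that size with 5000 bases added (−0.53), with 50 kb windows (−0.28) and with the gene body alone (−0.25), and that of heterozygous mice with 50 kb windows (−0.26) and with the gene body alone (−0.43).

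Markers of other cells moved with the same contrast. Of 9 markers of mature blood cells, erythroid cells, stroma and endothelium, 6 were above in wild-type HPCs against HSCs, 5 of them by at least 1.5-fold, and 1 was lower by that much. Ms4a1, a B-cell gene, was covered over 0 bases in HSCs and 3073 in HPCs, and Ly6c2, a myeloid gene, over 0 and 1743. Their part in the Tapbp and Nlrc5 values was not tested. In the 8 H3K27ac lists Cd3e, Ms4a1, Gzmb, C1qa and Col1a1 had 0 covered bases in every list.

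In HSC H3K27ac at 16 weeks, the processing genes and Nlrc5 were below the median gene in knockout against wild type, and the presenting subunits were slightly above it. After PBS, 3 of 9 members were above, namely B2m (0.09), H2-D1 (0.08) and H2-K1 (0.05), and the others were below. The lowest were Psmb8 (−0.33), Tap2 and Nlrc5 (both −0.23). None passed the fold, against 0.672% of genes higher and 5.73% lower. After 5FU the same 3 members were above, at 0.05 to 0.10, and Psmb8 and Tap2 passed the fold, both at −0.59, against 0.581% of genes higher and 6.43% lower. These calls ended with equal covered bases in both lists (−0.48 for Psmb8, −0.40 for Tap2), with 5000 bases added and with 50 kb windows. Over the gene body alone Psmb8 was at 0.20, and the region between Psmb8 and Tap2 lies outside it. Psmb8 and Tap2 share the region between them, so they are not separate observations. Peaks with an authors' −log10 q of at least 2 made up 39.6% of the knockout list after 5FU and 65.2% of the wild-type list.

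Between 5FU and PBS the H3K27ac of the members differed by less than 1.5-fold from the median gene. In wild-type HSCs, 5FU against PBS gave 3 of 9 above, a median of −0.04 and none past the fold, with 1.75% of genes higher and 1.09% lower. In knockout HSCs 4 of 9 were above, the median was −0.04 and none passed the fold (1.6% higher, 1.42% lower). Tap2 (−0.36) and Psmb8 (−0.33) were the lowest members in the knockout, and in wild type Tapbp was (−0.25). These comparisons use the same 4 lists as the genotype comparisons.

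HSC H3K4me1 at 16 weeks rested on lists of unequal size and unequal peak strength. Peaks with an authors' −log10 q of at least 2 made up 80.9% of the wild-type list after 5FU and 32.5% after PBS. In the knockout lists they made up 42.5% after 5FU and 32.9% after PBS. After PBS, knockout against wild type gave 3 of 9 members above, a median of −0.08 and none past the fold (5.45% of genes higher, 6.56% lower). With equal covered bases none of the 9 was above. After 5FU, 8 of 9 were above with a median of 0.46, and Psmb8 was higher at 0.66 (17148 bases in wild type, 12710 in knockout), against 4.97% of genes higher and 12.0% lower. Its covered bases were fewer in the knockout, and it was above only relative to the median gene, which stood at −1.07. The wild-type list covered 116.0 Mb and the knockout list 44.2 Mb. With equal covered bases 1 of 9 was above and Psmb8 was at −0.22, so the direction at this contrast depends on how list size is treated.

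Against PBS, 5FU in wild-type HSCs gave 3 of 9 above in H3K4me1 and none past the fold (8.98% of genes higher, 3.56% lower), with B2m at −0.56 and Tapbp at 0.37. With equal covered bases 7 of 9 were above. The knockout lists were closer in size, both at 44.2 Mb, and their median gene was at 0.01. There all 9 members were above, between 0.03 (B2m) and 0.36 (Tapbp), with none past the fold (4.66% of genes higher, 6.33% lower). H2-K1 went from 1593 bases after PBS to 2293 after 5FU, Tap2 from 7833 to 10061 and Nlrc5 from 10770 to 13686. The knockout PBS list was also the lowest of all 10 H3K4me1 lists at each of the 9 members.

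In HPC H3K27ac no member passed the fold. Knockout against wild type after PBS gave 7 of 9 above with a median of 0.07 (1.48% of genes higher, 3.66% lower), and after IL-1 4 of 9 with a median of −0.03 (0.732% higher, 4.06% lower). After IL-1 Tap2 was the lowest at −0.42 (10645 bases in wild type, 7322 in knockout). The number above went from 1 of 9 with 50 kb windows to 7 of the 8 measured over gene bodies alone. IL-1 against PBS gave 2 of 9 above in wild type, with a median of −0.09 (1.85% higher, 2.26% lower), where Psmb9 was the lowest at −0.41. In knockout HPCs 1 of 9 was above, Nlrc5 at 0.15, and the median was −0.15 (1.15% higher, 2.52% lower), with Psmb8 at −0.49, Tap2 at −0.48 and B2m at −0.40. The lists of the heavy chains lay close together, with H2-D1 at 0.03 and −0.01 and H2-K1 at −0.09 and −0.05 in wild type and knockout, whereas B2m was at −0.16 in wild type.

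Other genes of the pathway were counted in the same way. In HSC H3K27ac, knockout against wild type after PBS, 3 of 11 measured regulators were above, and after 5FU 2 of 12 were. The other class I heavy chains had 4 of 7 and 5 of 7 above in these comparisons, and the loading and trimming genes 2 of 5 and 5 of 5, with none of either list past the fold. In H3K4me1 of HPCs against HSCs 3 of 12 regulators were above in wild-type mice and 2 of 12 in knockout mice.

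Class II genes, which present peptides from outside the cell and lie near Tap1, were mostly above the median gene in HPCs. In H3K4me1 of wild-type HPCs against HSCs 8 of 9 were above and 3 of them passed the fold, namely H2-Ob at 1.13 (2605 and 8219 bases), H2-Ab1 at 0.82 and Ciita, the class II transactivator, at 0.71. H2-Eb1, a class II beta chain, was lower by that size at −0.68 (2861 and 1811 bases), against 11.6% of all genes higher and 10.6% lower. In heterozygous and knockout mice 7 and 8 of 9 were above, and H2-Ob was at 1.26 and 1.07. Psmb10, the further catalytic subunit of the immunoproteasome, was at 0.70 in knockout against wild-type HSC H3K4me1 after 5FU, the contrast with lists of unequal size. Among the other heavy chains H2-Q10 had 1092 bases of H3K4me1 in wild-type HPCs and 0 in knockout HPCs, and H2-Q6 was at 0.64 there, with 511 and 1341 bases. For IL-1 against PBS in wild-type HPC H3K27ac H2-Q6 was at −0.63.

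Members did not vary as a block over the lists. In H3K27ac, Pearson's r of each member's relative level with the mean of the others over 8 lists was 0.99 for Tap1, 0.97 for Psmb8, 0.94 for Tap2, 0.91 for Psmb9 and 0.88 for Tapbp. It was 0.55 for B2m, −0.39 for H2-D1, −0.72 for H2-K1 and −0.83 for Nlrc5. The first 4 share peaks, and the lists fall into HSC and HPC lists, so these values describe that split. In H3K4me1 over 10 lists r ran from −0.48 for Nlrc5 to 0.72 for Tap2. The genes over 1 Mb from every member whose coverage was most like the members' mean were Entpd3 (r = 0.989), Rpl13a (0.987) and B3galt6 (0.986) among 11486 genes in H3K27ac. In H3K4me1 they were Ctdsp1 (0.938), Aoc1 (0.926) and Ankrd13a (0.923) among 13402 genes. Such genes are the highest picked from many over few lists, and a link with the pathway was not tested. In H3K27ac the members' mean does not stand for H2-K1, H2-D1 or Nlrc5, which ran against the mean of the others.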

How the data were processed

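H3K4me1 and H3K27ac were measured by ChIPmentation in 63 libraries of 18 groups, each with 1 deposited peak list that pools its libraries; 6 input samples belonged to no group and were not used. Novoalign and MACS2 and the build mm10 (GRCm38) were used, per the submitters' processing notes. The tool versions, the filter and the handling of reads with several matches are not given in the sources. Deposited columns that entered were each peak's position, its fold enrichment (a linear ratio, by the authors' peak caller) and its −log10 p by the same caller. The authors' −log10 q entered in 1 alternative and in the shares of peaks with a value of at least 2. Peak length and −log10 p in the authors' lists depend on library depth, which is unknown here.

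Windows were gene bodies of the mm10 gene table with 10 kb on both sides. Covered bases were summed per window, log2 ratios taken after adding 1000 bases, and then centred on the median protein-coding gene, over genes with 1000 or more bases covered in at least 1 of both lists. A difference of at least 1.5-fold was counted; with 1 list per group no test was made. Named genes were all 9 members, up to 3 genes per other list past 1.5-fold, the largest first, and the 3 genes per mark most like the members' mean; markers, regions and some further values of these genes were chosen after their values were seen. A gene that this rule would name is not reported here. The members and lists were chosen with earlier results of these data known. Alternatives were −log10 q of at least 2, equal numbers of peaks, equal covered bases, 5000 added bases, 50 kb windows, gene bodies alone, and peaks with at least 50% of their length inside. Promoter sequences came from RefSeq (GRCm38.p6), with 7 of 9 members matched. Python 3.11.15, numpy 2.4.6, pandas 2.3.3 and matplotlib 3.10.9 were used, and the code was checked on simulated data.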

Additional observations from a re-analysis of the deposited data

How the results depend on the processing

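Of 133 recomputed shares of members above the median gene, 125 stayed within the exact 95% binomial interval of the reported share, which is wide for 9 members, and 12 changed their side of 50%. Within that interval the share ran from 22.2% to 55.6% for HSC H3K4me1 in heterozygous against wild-type mice, from 11.1% to 57.1% for HSC H3K27ac in knockout against wild type after PBS, and from 16.7% to 55.6% for 5FU against PBS in wild-type HSC H3K27ac. With equal covered bases, HSC H3K4me1 at 16 weeks gave 0.0% of members above in knockout against wild type after PBS, 11.1% after 5FU, where the direction turned, and 77.8% for 5FU against PBS in wild type. With 50 kb windows the knockout share after 5FU was 100%. In HPC H3K27ac the knockout share after IL-1 was 11.1% with 50 kb windows and 87.5% over gene bodies alone, and the share for IL-1 against PBS in knockouts was 0.0% with equal numbers of peaks and 0.0% with 50 kb windows. Of 1181 single ratios, 1138 did not cross 1.5-fold, 23 moved past it in the reported direction, 17 fell short of it, and 1 passed it with the other sign, H2-D1 for 5FU against PBS in wild-type HSC H3K4me1 over the gene body alone (−0.60, reported at 0.01). The sign turned in 153 of the 1181, with both values under 1.5-fold in all but that of H2-D1 and 2 that had been past it: Psmb8 over the gene body alone in HSC H3K27ac after 5FU (0.20) and Psmb8 in HSC H3K4me1 after 5FU with equal covered bases (−0.22). The cause of these differences was not tested.

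Of 266 counts of members past 1.5-fold, 238 stayed within 1.5 times the reported count. In 15 of the 19 comparisons the reported counts were 0, and counts that stayed at 0 are among the 238. This number therefore says little about the few counts above 0. Over the alternatives the number higher ran from 0 to 5 in HSC H3K4me1 knockout against wild type after 5FU and from 0 to 2 for 5FU against PBS in knockouts. The number lower ran from 0 to 2 in HSC H3K27ac knockout against wild type after 5FU, from 0 to 3 in HSC H3K4me1 5FU against PBS in wild type, and from 0 to 2 in knockout against wild type after PBS. The number lower ran from 0 to 1 (wild-type and heterozygous HPCs against HSCs, HSC H3K4me1 knockout against wild type at 8 weeks and after 5FU), as did that for IL-1 against PBS in knockout HPCs, and the number higher did so in heterozygous against wild-type HSCs and for IL-1 against PBS in wild-type HPCs. Tap2 in HSC H3K27ac after 5FU ran from −0.71 to −0.22.

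No paired analysis was possible because each list pools all libraries of its group, and for the same reason no replicate was left out. The depth of the libraries is unknown, and the lists differ in size.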
